A study of Mus musculus with 23 samples.

Results

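The chemokine ligand genes are the genes that encode the small secreted proteins which draw leukocytes along a gradient. They were taken by name alone: gene symbols made of Ccl or Cxcl and a number, plus Cx3cl1, Xcl1, Ppbp and Pf4. The array measured 36 of them among 19938 genes, with 19 CC symbols, 13 CXC symbols and the 4 extra names. Of these, 34 had 1 transcript cluster (the array's probe set for a gene), and for Ccl19 and Ccl25 the brighter cluster was kept. Ccl19 has near-identical copies in the mouse genome, so its value is uncertain. The arrays hold RNA of cells sorted from Py2T tumours, a murine breast cancer cell line grown in the mammary fat pad of female FVB/N mice. Endothelial cells came from 3 untreated tumours, 3 tumours of mice given nintedanib for 7 days (short-term) and 5 of mice given it for 21 days (long-term). Tumour cells came from 3 untreated, 4 short-term and 5 long-term tumours. Nintedanib, a kinase inhibitor that blocks VEGF, PDGF and FGF receptors and so acts against blood vessel growth, was dosed at 50 mg per kg body weight. The age of the mice is not given in the labels, and the tumour cells are all of 1 line. Untreated tumours were taken at the size of the long-term ones, so that tumour size and treatment cannot be told apart in the short-term comparison.

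Chemokines act on G protein-coupled receptors of leukocytes, endothelial cells and some tumour cells, and many are held on heparan sulfate at vessel walls. CXC ligands of Cxcr2 recruit neutrophils and promote vessel growth, whereas the interferon-induced ligands of Cxcr3 recruit T and NK cells and restrain vessel growth. CC ligands mainly recruit monocytes, eosinophils and lymphocytes. In tumours, both the cancer cells and the vessel lining can be sources of these proteins, and transcription through NF-kB, AP-1 or interferon signalling sets the level of many inflammatory members.

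The values are log2 signals, in which 1 unit is a 2-fold difference. They ran from 1.93 to 14.06 over all clusters, and 10 of the 36 genes lay under the 30th percentile of mean level of all genes, where small differences are compressed. Arrays of the same group correlated at 0.983 or higher in tumour cells and at 0.935 or higher in endothelial cells. All 16 endothelial markers of a list were higher in endothelial than in tumour cells under each treatment, with a list mean of 10.11 in untreated endothelial cells and 4.19 in untreated tumour cells. Of 11 epithelial markers, Krt8, Krt18 and Krt14 were lower in untreated endothelial cells (by -2.45 ± 0.62, -2.79 ± 0.61 and -2.21 ± 0.56, SE), and the other 8 did not pass the test, with 5 of the 11 differences positive and a list median of -0.03. In long-term cells 4 epithelial markers were called lower and 2 higher in endothelial cells. The mean of the epithelial list reached 7.39 on 1 long-term endothelial array, above every tumour cell array (6.21 to 6.83), and its part in the results was not tested. Endothelial arrays also held signal of macrophage markers, with list means of 4.34 to 7.11 over the 11 arrays, against 3.97 to 4.76 over the 12 tumour cell arrays. The 3 highest were untreated array 1 (7.02) and long-term arrays 3 and 4 (7.11 and 6.30). In such bulk RNA, fewer cells of a type and less RNA per cell cannot be told apart.

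Few of the 36 genes were called with nintedanib in tumour cells, and none passed the test in endothelial cells. A gene was called where limma's p, adjusted by the Benjamini-Hochberg method over all 19938 genes, was under 0.05. In short-term against untreated tumour cells, 3 of 36 were called, all higher (Cxcl1, Cxcl2 and Cxcl14), when 0.507% of all genes were called and 0.396% were called higher. In long-term against untreated tumour cells, 1 of 36 was called (Cxcl14, higher), against 0.0903% of all genes, 0.0752% of them higher. Both comparisons use the same 3 untreated arrays. Long-term and short-term tumour cells did not differ in any of the 36 genes at this threshold, while 1.22% of all genes were called, and 7 of the 36 (19.4%) had an unadjusted p under 0.05, beside 11.9% of all genes. Among endothelial cells no gene of any kind was called (0% in each of the 3 comparisons), and 2, 1 and 4 chemokine genes had an unadjusted p under 0.05 in short-term against untreated, long-term against untreated and long-term against short-term cells. These are 5.56%, 2.78% and 11.1% of the chemokine genes, beside 8.17%, 4.18% and 9.40% of all genes. The median difference of the 36 genes was 0.04 in short-term and 0.06 in long-term tumour cells against untreated, beside -0.01 over all genes in both.

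**Figure D1:**
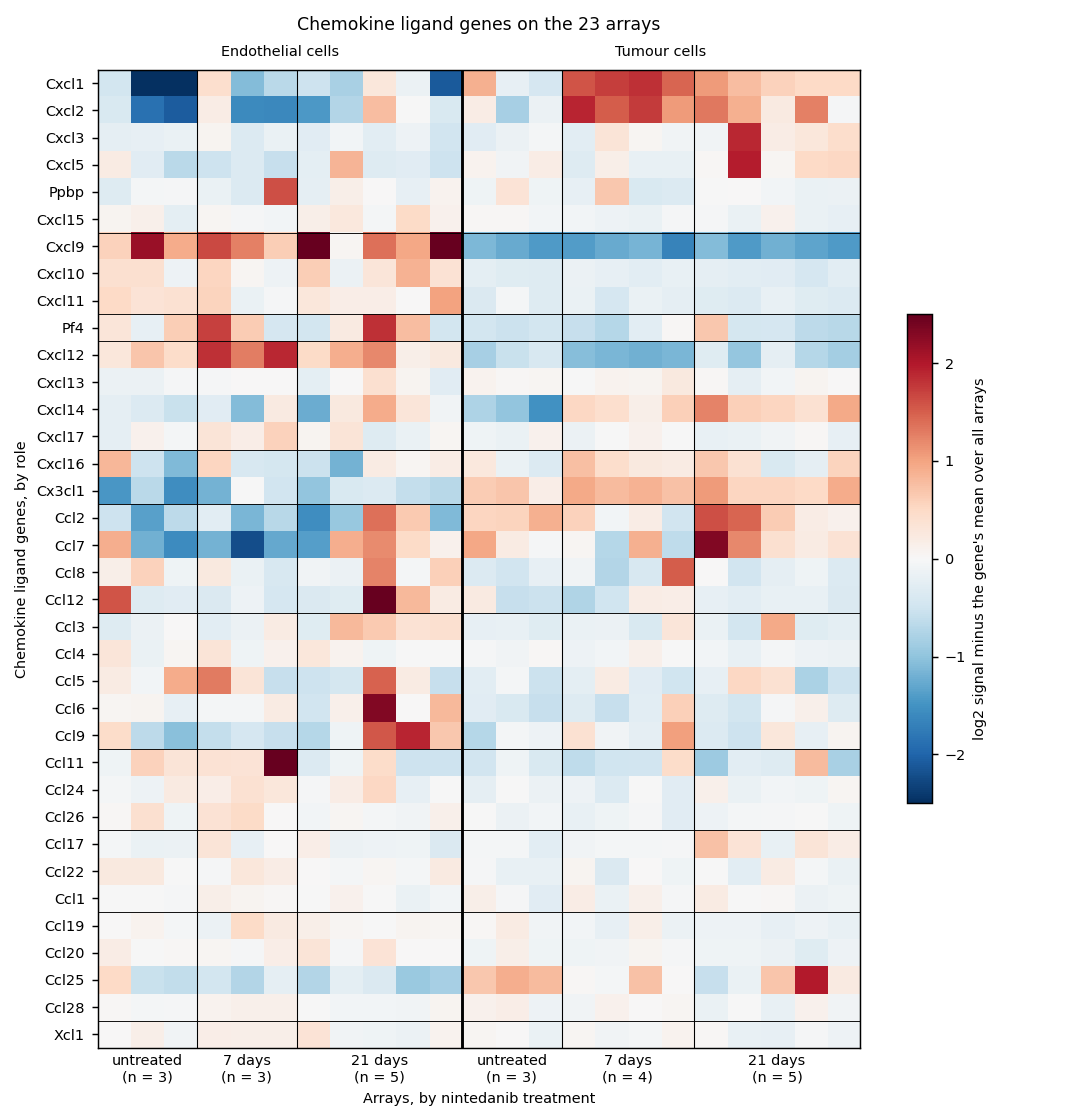
Signal of the 36 chemokine ligand genes (rows, ordered by role) on the 23 arrays (columns, by cell type and days of nintedanib), as log2 signal minus the mean of that gene over all arrays, with colours cut at 2.5 units on each side. Cxcl9 and Cxcl12 are red over the endothelial columns, Cxcl1 and Cx3cl1 over the tumour columns, and Cxcl14 is bluest in untreated tumour cells.

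Cell type separated more of these genes than treatment did, though no more often than it separated genes in general. Between untreated endothelial and untreated tumour cells, 5 of 36 were called (13.9%), beside 18.3% of all genes. The 3 higher in endothelial cells were Cxcl9, Cxcl11 and Cxcl12 (8.18% of all genes were higher), and the 2 lower were Cxcl1 and Cx3cl1 (10.2% of all genes were lower). In short-term cells 9 of 36 were called (25%), beside 40.0% of all genes. Cxcl9, Cxcl12, Cxcl17 and the 3 eotaxins were higher in endothelial cells, and Cxcl1, Cxcl2 and Cx3cl1 were lower. Of all genes, 59.9% had positive differences there, with a median of 0.11, and the calls were not counted by direction. In long-term cells 11 of 36 were called (30.6%), beside 32.0% of all genes, with 6 higher (15.7%) and 5 lower (16.3%). Cxcl9, Cxcl12, Cxcl1 and Cx3cl1 were called in the same direction in all 3. No chemokine gene passed the test of whether the effect of treatment differed between the cell types, which called 0.0953% of all genes for short-term and 0% for long-term treatment. Of the 36, 2 genes for short-term and 1 for long-term treatment had an unadjusted p under 0.05 in that test (5.56% and 2.78%), beside 11.05% and 5.33% of all genes.

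**Figure D2:**
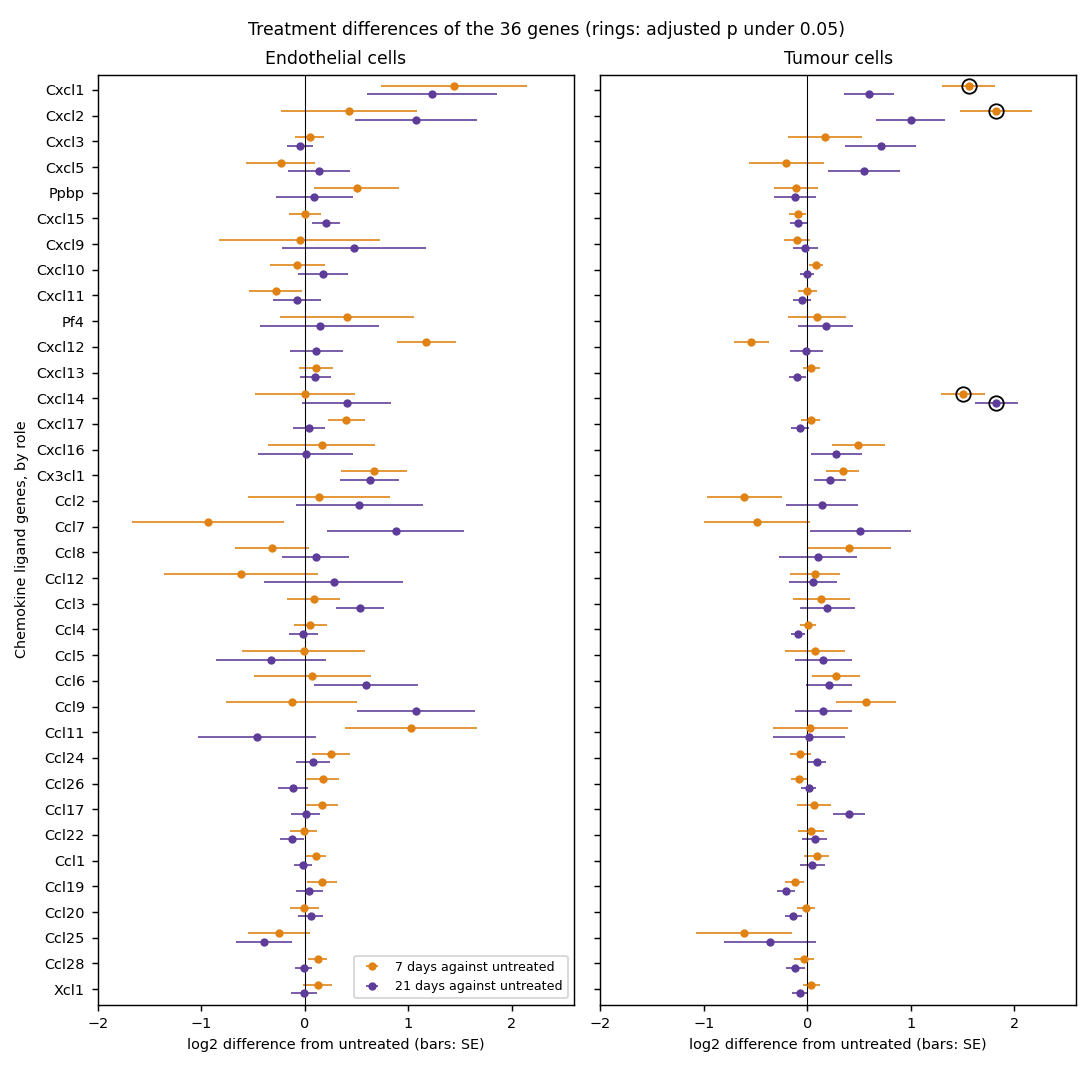
Log2 difference of treated from untreated cells for each of the 36 genes (rows, by role), with endothelial cells in the left panel and tumour cells in the right, 7 days in orange, 21 days in purple, and bars for the standard error. The rings mark the 4 called differences, all in tumour cells: Cxcl1 at 1.56, Cxcl2 at 1.82 and Cxcl14 at 1.51 and 1.83.

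Among the 6 members grouped here as ligands of Cxcr2, the receptor that brings neutrophils out of the blood, Cxcl1 and Cxcl2 rose in short-term tumour cells. The other 4 did not pass the test. The grouping was assigned by role and receptor binding was not tested. The 3 genes Cxcl1, Cxcl2 and Cxcl3 lie together on chromosome 5 and share a promoter element of the kind NF-kB binds, so the 250 bases before each start are printed here from RefSeq, build GRCm38.p6 (the C57BL/6J reference, not FVB/N), plus strand. They lie at chr5:90890995-90891244 (Cxcl1), chr5:90903649-90903898 (Cxcl2) and chr5:90785851-90786100 (Cxcl3). Capitals mark the shared letters, GGGAATTTCC, whose first base lies 71, 97 and 73 bases before the start.
Cxcl1: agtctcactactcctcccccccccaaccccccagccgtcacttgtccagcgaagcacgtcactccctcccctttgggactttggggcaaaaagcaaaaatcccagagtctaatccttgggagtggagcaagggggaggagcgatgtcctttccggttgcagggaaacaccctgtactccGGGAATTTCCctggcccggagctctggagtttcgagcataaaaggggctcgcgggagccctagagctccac
Cxcl2: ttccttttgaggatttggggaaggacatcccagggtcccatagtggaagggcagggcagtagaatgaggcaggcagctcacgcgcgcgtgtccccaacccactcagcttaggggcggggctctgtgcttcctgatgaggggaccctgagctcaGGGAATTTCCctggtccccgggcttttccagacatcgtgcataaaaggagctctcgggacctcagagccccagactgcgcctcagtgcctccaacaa
Cxcl3: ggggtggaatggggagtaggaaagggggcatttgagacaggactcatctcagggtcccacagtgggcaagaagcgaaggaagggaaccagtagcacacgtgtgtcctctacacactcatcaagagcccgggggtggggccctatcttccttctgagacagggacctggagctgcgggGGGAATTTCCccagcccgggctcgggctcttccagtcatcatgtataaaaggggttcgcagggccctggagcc
These letters were picked after the 3 windows were seen. On either strand they occur in the windows of 28 of 27025 genes (0.104%), and in 3 of the 25 chemokine genes that have a window, which are the 3 shown. A looser form, GGG and TTCC with 3 free bases between them and of which GGGAATTTCC is one case, is in 5.31% of all genes and in 7 of the 25 (Ccl1, Ccl9, Ccl20, Cxcl1, Cxcl2, Cxcl3 and Cxcl10). A match says that the letters are there and nothing about binding.

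Cxcl1, a main neutrophil attractant of mouse tissue, had log2 signals of 10.21, 10.38, 10.46 and 10.10 in short-term tumour cells, against 9.52, 8.43 and 8.22 in untreated tumour cells. All 4 short-term arrays lay above all 3 untreated ones, and untreated array 1 stood above the other two. The difference was 1.56 ± 0.26 (SE; 2.95-fold, adjusted p = 0.0254). In long-term tumour cells Cxcl1 was at 9.70, 9.40, 9.21, 9.14 and 9.15. These values overlapped the untreated ones because of untreated array 1 alone. The difference from untreated was 0.60 ± 0.24 (adjusted p = 0.429), and without untreated array 1 it was 0.99 with adjusted p = 0.0418. All 5 long-term arrays lay below the 4 short-term ones, by -0.97 ± 0.22 (adjusted p = 0.0632).

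Cxcl2, the close paralogue of Cxcl1 with the same receptor, was at 7.71, 7.33, 7.56 and 6.88 in short-term tumour cells, against 5.99, 4.98 and 5.66 in untreated tumour cells. The groups did not overlap, and the difference was 1.82 ± 0.35 (3.54-fold, adjusted p = 0.0454). Long-term tumour cells had 7.13, 6.70, 6.03, 7.06 and 5.78, so that 4 of 5 lay above every untreated array. Neither the difference from untreated (1.00 ± 0.33, adjusted p = 0.34) nor that from short-term cells (-0.83 ± 0.30, adjusted p = 0.277) passed the test.

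Cxcl3, the third of the paralogues with the same promoter letters, did not follow Cxcl1 and Cxcl2 at 7 days. It was at 4.62, 5.20, 4.93 and 4.79 in short-term tumour cells, against 4.59, 4.73 and 4.82 in untreated tumour cells (0.17 ± 0.36, adjusted p = 0.926). In long-term tumour cells it was at 4.79, 6.77, 5.07, 5.17 and 5.31, with array 2 far above the rest. Cxcl5, which epithelial cells make under inflammation, showed the same array: 4.35, 6.28, 4.37, 4.83 and 4.85 in long-term tumour cells, 4.0, 4.47, 4.13 and 4.14 in short-term and 4.41, 4.23 and 4.51 in untreated tumour cells. Its difference between long-term and short-term cells, 0.75 ± 0.32, did not pass (adjusted p = 0.369). Ppbp, whose product is stored in platelets, and Cxcl15, a lung chemokine of the mouse, stayed near the floor of the scale in tumour cells, with group means of 3.42 to 3.54 and 2.92 to 3.01.

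The endothelial cells carried less Cxcl1 and Cxcl2 signal than the tumour cells around them. Untreated endothelial cells had Cxcl1 at 8.18, 6.07 and 6.03, all below the untreated tumour cells, a difference of -1.96 ± 0.55 (adjusted p = 0.0154). That call was lost without untreated tumour array 1 or untreated endothelial array 2 or 3 (-1.57, -1.62 and -1.60, adjusted p up to 0.0955) and with the immediate early list as a covariate (-0.49, adjusted p = 0.663). The list's level and the cell type cannot be told apart in untreated cells, where its ranges do not overlap. The Cxcl1 differences were -2.09 ± 0.51 in short-term cells (adjusted p = 0.00381) and -1.33 ± 0.43 in long-term cells (adjusted p = 0.0219). Cxcl1 was at 9.06, 7.56 and 7.97 in short-term and 8.13, 7.84, 8.92, 8.50 and 6.55 in long-term endothelial cells. Its differences from untreated endothelial cells, 1.44 ± 0.70 and 1.23 ± 0.63, had larger errors than in tumour cells, and neither passed (adjusted p = 0.634 and 1.00). With the mean of the immediate early gene list as a covariate, the short-term value turned to -1.22 (adjusted p = 0.716). Cxcl2 was at 5.43, 3.95 and 3.74 in untreated, 5.99, 4.21 and 4.20 in short-term and 4.37, 5.08, 6.57, 5.79 and 5.42 in long-term endothelial cells. It was lower than in tumour cells by -2.56 ± 0.52 in short-term cells (adjusted p = 0.000839), and the differences of -1.17 ± 0.56 in untreated and -1.09 ± 0.43 in long-term cells did not pass. Cxcl3 was called lower in long-term endothelial cells (-0.79 ± 0.24, adjusted p = 0.0186), where tumour array 2 is part of the difference.

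**Figure D3:**
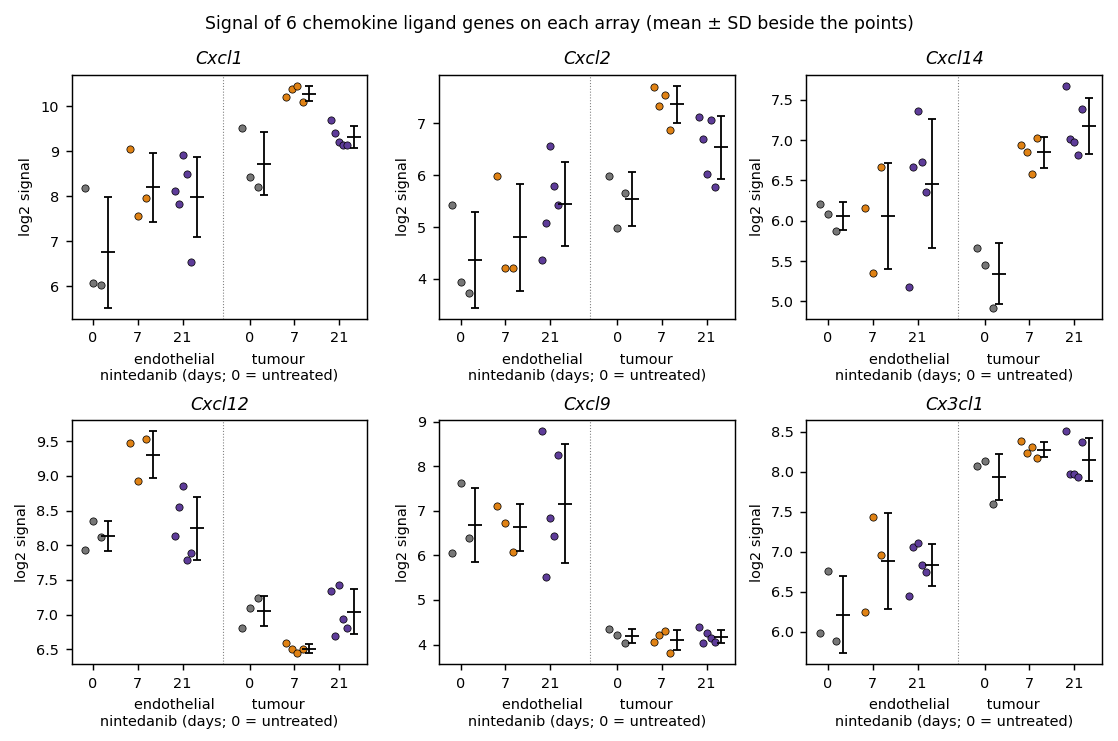
Log2 signal of Cxcl1, Cxcl2, Cxcl14, Cxcl12, Cxcl9 and Cx3cl1 on every array, by cell type and days of nintedanib (0 is untreated), with the mean and SD of each group beside its points. Short-term tumour cells sit at 10.10 to 10.46 for Cxcl1 and 6.88 to 7.71 for Cxcl2, above all untreated tumour cells, and Cxcl12 in endothelial cells is highest at 7 days, at 8.93 to 9.53.

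Dissociation and immediate early genes moved with Cxcl1 and Cxcl2. A list of 18 genes that stress and tissue dissociation induce, called the immediate early list here, holds more than immediate early genes alone. It had means of 9.56 to 9.95 in short-term tumour cells, 9.05 to 9.72 in long-term and 8.75 to 9.22 in untreated tumour cells. All 18 had positive differences of short-term from untreated cells, with a median of 0.82, and Hspa1a (1.63 ± 0.08), Dusp1 (1.32 ± 0.20) and Zfp36 (0.84 ± 0.16) were called. In long-term tumour cells all 18 differences from untreated were again positive, with a median of 0.33, with Hspa1a called (1.14 ± 0.08). Of all genes, 46.8% were positive in either tumour cell comparison, and 0.507% were called in short-term and 0.0903% in long-term cells. In endothelial cells all 18 differences from untreated were positive too, with medians of 0.71 in short-term and 0.78 in long-term cells and none called. Of all genes, 60.3% and 53.2% were positive there. The list means in endothelial cells were 8.85 to 9.23 in short-term, 8.66 to 9.42 in long-term and 8.06 to 8.41 in untreated cells. The short-term and untreated ranges do not overlap in either cell type, so the list's level and the treatment cannot be told apart on these arrays. In untreated and in short-term cells, the endothelial range also lay below the tumour cell range. In those comparisons the list's level and the cell type cannot be told apart either. With the list mean as a covariate the differences were 0.89 for Cxcl1, 1.39 for Cxcl2 and 0.90 for Cxcl14, with adjusted p of 0.798, 0.798 and 0.707, and 1 gene of all was called. Of 15 feedback and target genes of NF-kB none was called in either treatment comparison of tumour cells, and the smallest p were those of Tnfaip3 (1.38 ± 0.31, adjusted p = 0.0837) and Nfkbiz (0.66 ± 0.18, adjusted p = 0.165) in short-term cells.

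The homeostatic CXC ligands gave the one change seen at both times. Cxcl14, a chemokine that epithelia make constitutively, was at 6.94, 6.85, 6.58 and 7.03 in short-term tumour cells, against 5.66, 5.45 and 4.92 in untreated tumour cells. Long-term tumour cells had 7.67, 7.02, 6.97, 6.81 and 7.38. All 9 treated arrays lay above all 3 untreated ones. The differences were 1.51 ± 0.21 in short-term (2.84-fold, adjusted p = 0.0173) and 1.83 ± 0.21 in long-term cells (3.55-fold, adjusted p = 0.00811). Of the 12 fibroblast markers, Fbln1 (1.09 ± 0.14, adjusted p = 0.0099) and Col1a1 (0.65 ± 0.12, adjusted p = 0.0448) were called higher in short-term tumour cells, with 6 of 12 differences positive. In long-term tumour cells none was called and 11 of 12 were positive, with a median of 0.08. Their list means were 5.88 to 6.28 in short-term, 5.90 to 6.09 in long-term and 5.61 to 6.07 in untreated tumour cells, and their part in the Cxcl14 signal was not tested. In endothelial cells Cxcl14 was at 6.21, 6.08 and 5.87 in untreated, 6.15, 5.35 and 6.66 in short-term and 5.18, 6.67, 7.36, 6.73 and 6.35 in long-term cells, with overlap among the 3 groups. The endothelial minus tumour cell difference in its treatment effect was -1.50 ± 0.54 for short-term and -1.42 ± 0.49 for long-term treatment, which did not pass the test of the difference (adjusted p = 0.34 and 0.713).

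The tumour cell calls rest on few arrays and on the spread that is used. Leaving out 1 array kept Cxcl14 called in long-term cells in 12 of 12 cases and in short-term cells in 10 of 12, with the calls lost without untreated array 3 (adjusted p = 0.0537) or short-term array 1 (0.0515). Cxcl1 was still called in 6 of 12 such cases and Cxcl2 in 3 of 12, with their differences between 1.31 and 1.96 and between 1.54 and 2.05. In 1 fit over all 23 arrays, which takes in the larger spread of endothelial arrays, adjusted p was 0.517 for Cxcl1, 0.291 for Cxcl2 and 0.137 for Cxcl14 in short-term cells and 0.0635 for Cxcl14 in long-term cells. Cxcl2 also lost its call after a second quantile normalization (adjusted p = 0.0528) and with array weights (0.0698). The macrophage list as a covariate also ended the short-term calls, with differences of 1.57, 1.77 and 1.38 and adjusted p of 0.0843, 0.138 and 0.064.

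Cxcl12, which holds stem cells and lymphocytes in place through Cxcr4 and is made by stroma and vessels, lay on opposite sides of the untreated level in the sorted populations at 7 days, without passing the test in either. Short-term endothelial cells had 9.47, 8.93 and 9.53, against 7.93, 8.35 and 8.11 in untreated endothelial cells, with all 3 above (1.18 ± 0.28, unadjusted p = 0.00194, adjusted p = 0.409). Short-term tumour cells had 6.59, 6.50, 6.44 and 6.50, against 6.81, 7.10 and 7.24 in untreated tumour cells, with all 4 below (-0.54 ± 0.17, adjusted p = 0.222). The difference between the effects was 1.72 ± 0.34 (95% interval 1.01 to 2.42, adjusted p = 0.0559). Long-term values overlapped the untreated ones in both populations. They had 8.14, 8.56, 8.86, 7.79 and 7.88 in endothelial cells, all below short-term cells (-1.06 ± 0.25, adjusted p = 0.368), and 7.34, 6.69, 7.43, 6.94 and 6.81 in tumour cells, all above short-term cells (0.53 ± 0.15, adjusted p = 0.127). In 1 fit over all 23 arrays the difference of short-term from untreated endothelial cells passed (adjusted p = 0.0307), as did the difference between long-term and short-term endothelial cells (0.022). That fit takes in the smaller spread of tumour cell arrays, with a median residual SD of 0.228 beside 0.255 in the endothelial fit. It was the only 1 of 23 alternatives that called either difference. The difference between the effects passed where dim genes were left out or where the 3 arrays high in macrophage markers were (1.62, adjusted p = 0.0498).

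The difference in Cxcl12 between the cell types was called at every stage. Endothelial cells exceeded tumour cells by 1.08 ± 0.25 when untreated (adjusted p = 0.00333), by 2.80 ± 0.23 after 7 days (6.96-fold, adjusted p = 1.43e-08) and by 1.20 ± 0.19 after 21 days (adjusted p = 6.48e-05). Pericyte and smooth muscle markers, genes of another cell type known to make Cxcl12, were also higher in endothelial arrays, with 7 of 10 called higher and 1 lower in untreated cells and list means of 5.66 to 6.21, 6.08 to 6.38 and 5.71 to 5.95 on untreated, short-term and long-term arrays. Of 12 fibroblast markers, which mark another source of Cxcl12, 4 were called higher and 3 lower in short-term endothelial than in short-term tumour cells, among them Thy1 higher (3.19 ± 0.51) and Pdgfra lower (-3.16 ± 0.53). Their list means were 5.75 to 6.26, 5.98 to 6.76 and 5.55 to 6.57 on untreated, short-term and long-term endothelial arrays, with a median difference of 0.37 of short-term from untreated and -0.28 of long-term from short-term cells, none called. The part of either list in the Cxcl12 signal was not tested. Cxcl13, the B cell attractant, was dim everywhere, with group means of 3.25 to 3.45. Cxcl17, a mucosal chemokine, was at 5.53, 5.36 and 5.77 in short-term and 4.99, 5.31 and 5.16 in untreated endothelial cells (0.40 ± 0.18, adjusted p = 0.609), and it was called higher in short-term endothelial than tumour cells (0.37 ± 0.13, adjusted p = 0.0323).

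Of the 3 ligands of Cxcr3, 2 were called higher in endothelial than in tumour cells when untreated (Cxcl9 and Cxcl11), 1 after 7 days (Cxcl9) and all 3 after 21 days, and none was called in a treatment comparison. Cxcl9, induced by interferon gamma, was at 6.05, 7.62 and 6.40 in untreated endothelial cells, against 4.34, 4.21 and 4.04 in untreated tumour cells (2.49 ± 0.57, 5.62-fold, adjusted p = 0.00349). After 7 days it was at 7.12, 6.72 and 6.07 in endothelial cells, against 4.07, 4.21, 4.31 and 3.80 in tumour cells (2.54 ± 0.53, adjusted p = 0.00109). After 21 days it was at 8.78, 5.51, 6.84, 6.43 and 8.25 in endothelial cells, against 4.39, 4.04, 4.26, 4.15 and 4.05 in tumour cells (2.99 ± 0.44, adjusted p = 3.01e-05). No endothelial array overlapped a tumour cell array, and the long-term endothelial arrays spread most. Many leukocyte markers, but not all, also had positive differences. Of all genes, 54.4%, 59.9% and 58.6% were positive in untreated, short-term and long-term cells. The shares of all genes called in either direction were 18.3%, 40.0% and 32.0%. The differences of all 11 dendritic cell markers were positive at each stage, with 3, 3 and 5 called in untreated, short-term and long-term cells. Cd74 (3.02 ± 0.68) and Zbtb46 (0.71 ± 0.15) were among the untreated ones. The 19 macrophage markers were all positive in untreated and long-term cells, with 1 and 8 called, and 16 of 19 were positive with none called in short-term cells. Of 14 lymphocyte and NK cell markers, 10, 13 and 13 were positive in untreated, short-term and long-term cells. Among them 1, 4 and 4 were called higher, and 1 was called lower at each stage. Of 10 neutrophil markers, 9, 9 and 10 were positive, with 0, 3 and 2 called higher and none lower. The part of these cells in the Cxcl9 signal was not tested. Leaving out 1 array kept the untreated call of Cxcl9 in 23 of 23 cases. With the immediate early list as a covariate it was 1.93 and lost (adjusted p = 0.128). That list had means of 8.06 to 8.41 on untreated endothelial and 8.75 to 9.22 on untreated tumour arrays. Its level and the cell type cannot be told apart there.

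Cxcl10 and Cxcl11 showed the same direction at lower signal. Cxcl10 was at 5.16, 4.40, 4.86, 5.42 and 4.90 in long-term endothelial cells, against 4.33, 4.28, 4.27, 4.13 and 4.29 in long-term tumour cells (0.69 ± 0.15, adjusted p = 0.00174). Its differences of 0.51 in untreated and 0.35 in short-term cells did not pass (adjusted p = 0.0796 and 0.128). Cxcl11, annotated in RefSeq as a transcribed pseudogene of the C57BL/6J reference, was at 4.23, 4.06 and 4.10 in untreated endothelial cells, against 3.37, 3.67 and 3.41 in untreated tumour cells (0.65 ± 0.20, adjusted p = 0.025). That call was lost in 4 of 23 cases with 1 array left out, those of untreated tumour array 1 or 3 and untreated endothelial array 1 or 3 (adjusted p up to 0.0942). It was also lost after quantile normalization or median centring (0.0566 and 0.0526). With the immediate early list as a covariate, which cannot be told apart from cell type in untreated cells, it was lost too. Of 32 alternatives, 8 lost the call, with adjusted p up to 0.288. In short-term cells the Cxcl11 difference of 0.36 did not pass (adjusted p = 0.117), and in long-term cells it was 0.62 ± 0.15 (adjusted p = 0.00383). Of 16 interferon response genes 6 were higher in untreated endothelial than tumour cells and none lower, among them the immunoproteasome genes Psmb9 (3.13 ± 0.38) and Psmb8 (2.07 ± 0.32) and the peptide transporter Tap1 (1.25 ± 0.27). None of the 16 was called in any treatment comparison.

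Cx3cl1, a chemokine on a membrane stalk that binds monocytes and T cells through Cx3cr1, was lower in endothelial than in tumour cells, although it is usually described as an endothelial product. Untreated endothelial cells had 5.99, 6.77 and 5.89, against 8.07, 8.13 and 7.60 in untreated tumour cells (-1.72 ± 0.26, adjusted p = 7.86e-05). Short-term endothelial cells had 6.25, 7.44 and 6.96, against 8.39, 8.23, 8.31 and 8.17 in short-term tumour cells (-1.39 ± 0.25, adjusted p = 0.00025). Long-term endothelial cells had 6.45, 7.06, 7.11, 6.84 and 6.74, against 8.51, 7.98, 7.97, 7.94 and 8.37 in long-term tumour cells (-1.31 ± 0.20, adjusted p = 5.28e-05). The populations did not overlap at any stage. Neither cell type showed a called response to nintedanib. The differences from untreated were 0.67 ± 0.32 in short-term and 0.63 ± 0.29 in long-term endothelial cells, and 0.34 ± 0.16 in short-term tumour cells. Cxcl16, the other membrane-anchored member, which draws Cxcr6-bearing T cells, had group means of 5.06 to 5.22 in endothelial and 5.24 to 5.73 in tumour cells and was called in no comparison.

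Genes that shed, cut or hold chemokines were read beside them. Of 11 such genes, Mmp12, a metalloelastase that cleaves several chemokines, was called lower in short-term tumour cells (-1.06 ± 0.20, adjusted p = 0.0451) and in long-term tumour cells (-1.24 ± 0.19, adjusted p = 0.0397), both against untreated. The heparan sulfate carriers Sdc4 (0.46 ± 0.10, adjusted p = 0.0837) and Sdc1 (0.60 ± 0.15, adjusted p = 0.124) did not pass in short-term tumour cells. Adam10, a sheddase of Cx3cl1 and Cxcl16, was higher in untreated endothelial than tumour cells (1.90 ± 0.23, adjusted p = 5.19e-06). Of the 11 genes, 2 were called higher and 5 lower in that comparison, with a median difference of -0.69. Of all genes, 8.18% were called higher and 10.2% lower. In short-term cells 2 of the 11 were called higher and 4 lower, and in long-term cells 3 higher and 5 lower.

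None of the 4 monocyte chemoattractants was called in a treatment comparison. Ccl2, the main ligand of Ccr2, was at 7.94, 7.97 and 8.29 in untreated, 7.99, 7.35, 7.59 and 6.92 in short-term and 9.03, 8.87, 8.04, 7.59 and 7.52 in long-term tumour cells. Long-term and short-term tumour cells differed by 0.75 ± 0.32 (adjusted p = 0.371) and overlapped. In endothelial cells Ccl2 was at 6.89, 6.05 and 6.76 in untreated, 7.14, 6.27 and 6.71 in short-term and 5.86, 6.47, 8.78, 8.05 and 6.31 in long-term cells. The untreated endothelial arrays all lay below the untreated tumour arrays (-1.50 ± 0.58, adjusted p = 0.0802).

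Ccl7, which shares Ccr2 with Ccl2, was at 7.27, 6.51 and 6.27 in untreated, 6.35, 5.59, 7.19 and 5.66 in short-term and 8.62, 7.50, 6.70, 6.51 and 6.65 in long-term tumour cells. The long-term arrays exceeded the short-term ones by 1.00 ± 0.45 (adjusted p = 0.41), with overlap. In endothelial cells it was at 4.91, 7.22, 7.47, 6.78 and 6.40 in long-term and 5.12, 4.09 and 5.02 in short-term cells, a difference of 1.81 ± 0.66 (adjusted p = 0.467). Untreated endothelial cells had 7.20, 5.11 and 4.72, with array 1 high. Ccl12, another Ccr2 ligand of the mouse, stood out on the same arrays: 5.78 on untreated array 1, and 6.84 and 5.02 on long-term arrays 3 and 4, against 3.80 to 4.43 on the other 8 endothelial arrays. Ccl8 stayed between 2.95 and 4.93 on all but 1 array, short-term tumour array 4 at 5.20.

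The 3 endothelial arrays highest in Ccl12 were the 3 highest in macrophage markers, and for Ccl7 and Ccl2 those 3 were among the highest 4. Without those 3 arrays the long-term against short-term difference of Ccl7 was 1.43, and with the macrophage list as a covariate it was 0.80, neither called. No macrophage marker was called in a treatment comparison. Their median difference was -1.17 in short-term and 0.03 in long-term endothelial cells against untreated, and Lyz2 (-3.75 ± 1.17) and C1qb (-2.85 ± 1.06) in short-term cells had adjusted p = 0.549 and 0.595.

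**Figure D4:**
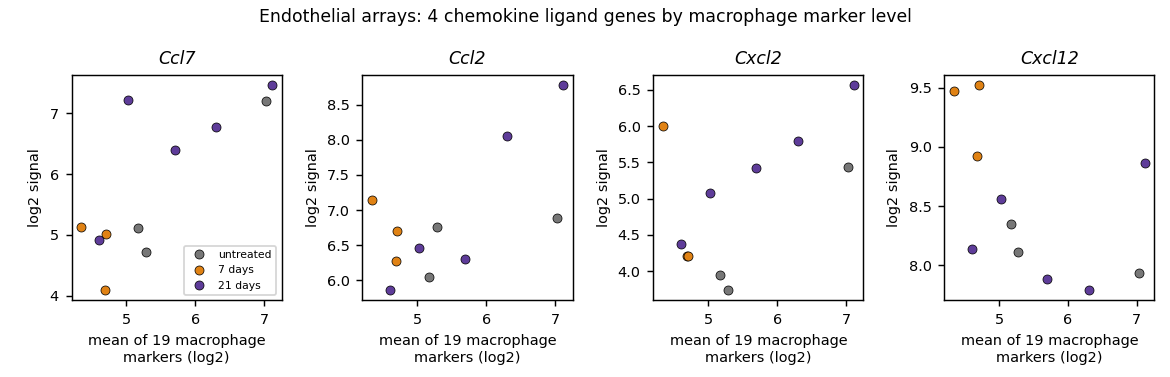
Log2 signal of Ccl7, Ccl2, Cxcl2 and Cxcl12 (vertical axes) against the mean log2 signal of 19 macrophage markers (horizontal axes) on the 11 endothelial arrays, coloured by treatment. Ccl7 is at 7.20 and 7.47 on the 2 arrays with the highest marker mean, and at 7.22 on 1 array whose marker mean is 5.03, while Cxcl12 is highest on the short-term arrays, whose marker means are 4.34 to 4.71.

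The CC ligands Ccl3, Ccl4, Ccl5, Ccl6 and Ccl9, made mostly by macrophages and lymphocytes, were called in no comparison. Ccl9 was at 3.77, 4.36, 6.04, 6.38 and 5.15 in long-term endothelial cells, against 3.87, 4.05 and 3.90 in short-term ones (1.20 ± 0.57, adjusted p = 0.537), and at 4.93, 3.83 and 3.43 in untreated ones. Ccl3 was at 3.57, 4.68, 4.52, 4.25 and 4.28 in long-term endothelial cells, against 3.55, 3.73 and 3.89 in untreated ones (0.53 ± 0.23, unadjusted p = 0.0416, adjusted p = 1.00). Ccl6 reached 6.99 on long-term endothelial array 3, the array highest in macrophage markers, and lay between 4.20 and 5.47 on the other endothelial arrays. Ccl5, made by activated T cells, was at 6.24, 5.96 and 6.95 in untreated, 7.33, 6.34 and 5.45 in short-term and 5.50, 5.58, 7.50, 6.22 and 5.46 in long-term endothelial cells, and its tumour cell means were 5.75 untreated, 5.82 after 7 days and 5.90 after 21 days. Ccl4 had group means of 3.67 to 3.90.

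The 3 eotaxins, which attract eosinophils through Ccr3, were all called higher in short-term endothelial than in short-term tumour cells. In that comparison 40.0% of all genes were called in either direction and 59.9% had positive differences. The median of all genes was itself 0.11 and shifted by -0.11 under a second quantile normalization or median centring. Ccl11 was at 5.73, 5.71 and 8.53 in short-term endothelial cells, against 4.74, 4.88, 4.90 and 5.83 in short-term tumour cells (1.57 ± 0.52, adjusted p = 0.0217), with endothelial array 3 far above the other two. Long-term endothelial cells had 5.04, 5.26, 5.84, 4.86 and 4.86 (-1.48 ± 0.57, adjusted p = 0.486). Without short-term array 3 that difference was -0.55. Ccl24 and Ccl26 differed by 0.46 ± 0.14 and 0.44 ± 0.11 (adjusted p = 0.0126 and 0.00521) at low signal. Ccl24 was at 4.38, 4.60 and 4.50 in short-term endothelial cells, against 4.10, 3.88, 4.21 and 3.94 in short-term tumour cells. Ccl26 was at 3.96, 4.07 and 3.61 in short-term endothelial cells, against 3.41, 3.49, 3.56 and 3.31 in short-term tumour cells. For both genes every short-term endothelial array lay above every short-term tumour cell array. The share of all genes without such overlap was not computed.

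The remaining members are mostly dim. Of the Ccr4 and Ccr8 ligands, Ccl17, a T cell attractant of dendritic cells, was at 4.67, 4.27, 3.74, 4.24 and 4.11 in long-term tumour cells, against 3.87, 3.87 and 3.67 in untreated tumour cells (0.40 ± 0.15, adjusted p = 0.398). It was called lower in long-term endothelial than in long-term tumour cells (-0.39 ± 0.13, adjusted p = 0.0285), while Ccl22 and Ccl1 had group means of 3.61 to 3.90 and 3.70 to 3.84. Among the lymphoid and barrier tissue ligands, Ccl25, the gut and thymus chemokine, was at 4.17, 4.66, 4.55, 3.97 and 4.08 in long-term endothelial cells, against 4.32, 4.73, 5.60, 6.89 and 5.12 in long-term tumour cells (-1.05 ± 0.34, adjusted p = 0.025). Ccl20, the ligand of Ccr6, differed by 0.29 ± 0.09 between the same groups (adjusted p = 0.0151), and Cxcl15 by 0.28 ± 0.09 (adjusted p = 0.0262), both near the floor of the scale. Ccl20 was at 4.26, 3.91, 4.29, 3.95 and 3.95 in long-term endothelial cells, against 3.83, 3.85, 3.79, 3.64 and 3.81 in long-term tumour cells, without overlap. Cxcl15 was at 3.17, 3.28, 2.96, 3.50 and 3.13 in long-term endothelial cells, against 2.99, 2.86, 3.13, 2.85 and 2.82 in long-term tumour cells, with overlap. Ccl19 was at 4.53, 4.52, 4.44, 4.51 and 4.45 in long-term tumour cells, all below the untreated 4.67, 4.85 and 4.57, by -0.21 ± 0.09 (adjusted p = 0.46). Ccl28 had group means of 3.63 to 3.81, and Xcl1, made by activated T and NK cells, of 4.18 to 4.43. Pf4, stored in platelets and also made by macrophages, was at 5.88, 4.81 and 3.77 in short-term and 3.72, 4.39, 6.01, 4.94 and 3.72 in long-term endothelial cells, and was not called against tumour cells at any stage.

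**Figure D5:**
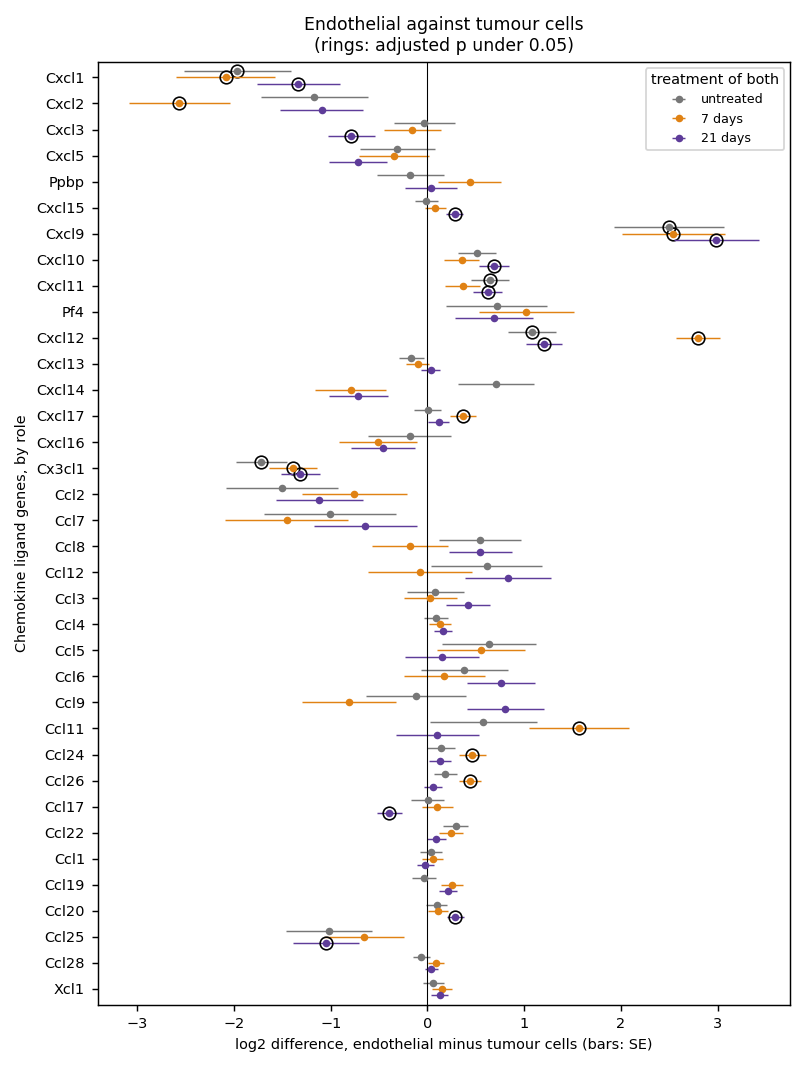
Log2 difference of endothelial minus tumour cells for each of the 36 genes (rows, by role) in untreated, 7-day and 21-day tumours, with bars for the standard error and rings where the adjusted p is under 0.05. Cxcl9 (2.49, 2.54 and 2.99) and Cxcl12 (1.08, 2.80 and 1.20) lie to the right at all 3 stages, and Cxcl1 (-1.96, -2.09 and -1.33) and Cx3cl1 (-1.72, -1.39 and -1.31) to the left.

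No receptor for these ligands passed the test with treatment. None of 17 chemokine receptors and none of 5 atypical receptors, which bind chemokines without G protein signalling, was called in the 6 treatment comparisons. Cxcr4, the receptor of Cxcl12, was higher in untreated endothelial than tumour cells by 5.72 ± 0.48 (adjusted p = 2.14e-08), by 4.20 ± 0.45 in short-term and by 4.52 ± 0.37 in long-term cells. Within endothelial cells its differences from untreated were -1.45 ± 0.61 in short-term (adjusted p = 0.607) and -1.22 ± 0.55 in long-term cells. Ackr3, the second receptor of Cxcl12 and one that clears it, was called lower in endothelial than in tumour cells after 7 days (-0.74 ± 0.19, adjusted p = 0.00455) and after 21 days (-0.67 ± 0.15, adjusted p = 0.00234). Ackr2, a scavenger of inflammatory CC ligands, was higher in untreated endothelial than tumour cells (2.45 ± 0.43, adjusted p = 0.000364).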

How the data were processed

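RNA of 23 sorted cell samples was amplified with NuGEN kits and hybridised to Affymetrix arrays, per the labels. The authors deposited log2 values made with RMA in the oligo package, per the submitters' processing notes; RMA corrects background, quantile normalizes arrays and gives 1 value per transcript cluster, with no tool version given in the sources used here. Quantile normalization sets the arrays to a common distribution, so values are relative to all genes of an array. Of 35556 clusters, 21789 named 1 gene in the platform annotation, and 21698 of these matched RefSeq. The cluster with the highest mean was kept for the 999 genes with several, which left 19938 genes.

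From these values, differences, standard errors and two-sided p-values were computed with limma 3.58.1 in R 4.3.3, with Benjamini-Hochberg adjustment over all 19938 genes and 0.05 as the threshold. Treatment comparisons used 12 tumour or 11 endothelial arrays in separate fits, and comparisons between cell types used all 23. The labels call the samples biological replicates. The members were all named, and the rule for values per array took those called in a treatment comparison, those with the smallest p there, those that differed most between untreated cell types, those with the highest signal, and Cxcl2 and Cxcl14. Dim members among these have group means or ranges for some groups. The members and the companion gene lists were chosen with earlier results of these data known. The number of arrays limits the precision. The procedure was also run on simulated data with independent noise for each gene and array. Such data hold no outlying arrays and no effects shared by the genes of an array, so the run cannot speak to those. Alternatives were another normalization, filters on dim genes, array weights, an intensity trend, a replicate block, covariates, 1 joint fit, and leaving out each array. Leaving out the 3 endothelial arrays highest in macrophage markers was added after the data were seen.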

Additional observations from a re-analysis of the deposited data

Results flagged for a closer look

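The short-term effect on Cxcl12 differed between the cell types by 1.72 on the log2 scale (endothelial minus tumour cells, adjusted p = 0.0559 by limma, not past the threshold): all 3 short-term endothelial arrays lay above the untreated ones, and all 4 short-term tumour arrays lay below them.

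Of 108 gene and group pairs examined, 10 held an array that stood apart from the rest of its group by Dixon's criterion, which chance alone meets in about 1 in 20 pairs (5.4 expected). In long-term tumour cells, array 2 was high in both Cxcl3 (6.77, against 4.79 to 5.31 on the other arrays of its group) and Cxcl5 (6.28, against 4.35 to 4.85). Array 3 of that group was high in Ccl3 (4.83, against 3.43 to 3.71) and Cxcl11 (3.53, against 3.39 to 3.43), array 1 was high in Pf4 (4.85, against 3.49 to 3.76), and array 4 was low in Ccl20 (3.64, against 3.79 to 3.85). In short-term tumour cells, array 4 was high in Ccl11 (5.83, against 4.74 to 4.90) and array 3 in Ccl25 (5.63, against 4.85 to 4.92). In long-term endothelial cells, array 5 was high in Cxcl11 (4.74, against 3.74 to 4.0) and array 2 in Cxcl5 (5.16, against 3.80 to 4.08).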

How the results depend on the processing

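The 3 calls in short-term against untreated tumour cells became 0 in 1 fit over all 23 arrays, with the macrophage list as a covariate and with the immediate early list as a covariate, and between 0 and 3 with 1 array left out. They became 0 without untreated array 3 or short-term array 1, and 1 (Cxcl14) without untreated array 2 or short-term array 2, 3 or 4. The call in long-term against untreated tumour cells became 0 in the joint fit and ranged from 1 to 2, with 2 without untreated array 1. In long-term against short-term tumour cells, 0 calls became 1 (Cxcl1) with either filter on dim genes, an intensity trend or array weights, and ranged from 0 to 1 (1 without untreated array 1 or 3). In endothelial cells, 0 calls became 1 (Cxcl12) in the joint fit when short-term cells were set against untreated ones or long-term against short-term ones. The joint fit takes in the smaller spread of tumour cell arrays. Between untreated cell types, 5 calls became 8 with the macrophage covariate and 2 with the immediate early covariate, and ranged from 3 to 6 (3 without untreated tumour array 1). Between short-term cell types, 9 became 3 with the immediate early covariate and ranged from 7 to 11. In untreated and in short-term cells, that covariate and the cell type cannot be told apart. Between long-term cell types, 11 became 7 with the filter at the 50th percentile, where 13 members were left, and ranged from 8 to 14. For the difference in the short-term effect, 0 became 1 (Cxcl12) with either filter, with the 3 endothelial arrays left out, and without short-term endothelial array 2 or long-term endothelial array 3 or 5 (range 0 to 1). One difference reversed: Cxcl1 in short-term against untreated endothelial cells, 1.44 and not called, was -1.22 with the immediate early covariate. Where no construction shows it, the cause was not tested. The counts for long-term against untreated endothelial cells and for the difference in the long-term effect were 0 under every alternative run. Whether replicate numbers pair the samples is not settled by these data. Same-numbered arrays of different groups correlated at -0.149 to 0.112 in their deviations from group means, and differently numbered ones at -0.245 to 0.221. Between untreated tumour and untreated endothelial cells these ranges were 0.012 to 0.050 and -0.051 to 0.023. With the number as a replicate block, the tumour cell counts were 3, 1 and 0, the endothelial ones 0, and those between cell types 5, 8 and 11. Low signal limits the 10 members under the 30th percentile.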

Other observations

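The 6 symbols of the Ccl21 and Ccl27 families appear only on clusters that name several genes and were left out of all comparisons. Ccl21, which guides T cells and dendritic cells along lymphatic vessels, gave the same value on its 4 clusters. The mean log2 signal was 5.95 ± 0.35 in untreated, 6.70 ± 1.99 in short-term and 5.14 ± 0.74 in long-term endothelial cells, and 4.69 ± 0.20, 4.76 ± 0.08 and 4.59 ± 0.16 in the matching tumour cells (SD, n = 3, 3 and 5 endothelial and 3, 4 and 5 tumour arrays). Short-term endothelial cells ranged from 4.45 to 8.26.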
